A study of Homo sapiens with 17 samples.

Results

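In human H1 pluripotent stem cells, 13086 sites carried RNA polymerase II signal inside a protein-coding gene with no H3K27ac peak summit within 500 bp. They were taken from 49802 POLIIS2P sites shared by both control repeats on chromosomes 1 to 22, of which 27564 lay in a gene body, and they made up 47.5% of those gene-body sites. A site was a POLIIS2P summit (the base of highest signal in a called peak) in the first shLUC repeat that had a counterpart in the second at most 250 bp away. It had to lie inside a RefSeq protein-coding gene, more than 2000 bp from any protein-coding gene end, and have no summit of either shLUC H3K27ac list within 500 bp. The remaining 14478 gene-body sites, which had such a summit, are the class most like them and serve for comparison.

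POLIIS2P is an antibody target that the titles give by this name alone, read here as the phosphorylated form of RNA polymerase II that is found on genes during productive elongation. The labels' protocol does not name this antibody or one against H3K4me1, so both rest on the titles. Elongating polymerase spreads over gene bodies and builds up toward their ends. H3K27ac marks active promoters and enhancers, and H3K4me1 marks enhancers both active and poised. HNRNPU is a nuclear RNA-binding protein that associates with chromatin and nascent transcripts.

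The data were CUT&Tag peak summits from 17 libraries of H1 cells, in which an antibody on chromatin directs a transposase to tag the DNA beside it. Cells had received virus with an shRNA against luciferase (shLUC, the control) or 1 of 2 shRNAs against HNRNPU (shHNRNPU#1, shHNRNPU#2) and were selected with puromycin, and both HNRNPU libraries came from untransfected H1 cells. POLIIS2P was profiled in 2 shLUC libraries and 1 shHNRNPU#1 library, and each histone mark in 4 shHNRNPU and 2 shLUC libraries. Labels do not say whether repeats were separate cultures, so the spread between repeats may be technical.

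The titles of the 4 shLUC histone libraries disagreed with the antibody in their own peak names, each mark being exchanged for the other. The choice of sites followed the peak names. Of the 40000 strongest summits of the libraries titled H3K4me1 shLUC, 43.7% to 53.1% had 1 of the 40000 strongest summits of a shHNRNPU H3K27ac library within 250 bp and 23.3% to 27.8% one of a shHNRNPU H3K4me1 library. For the libraries titled H3K27ac shLUC these shares were 20.1% to 28.8% and 69.6% to 74.6%. The lists used as shLUC H3K27ac are therefore those titled H3K4me1 shLUC, and the lists titled H3K27ac shLUC are read below as H3K4me1. With the titles taken as written, the same choice gave 12701 sites, of which 8052 were also among the 13086.

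Read depth was unknown, and list lengths stood in its place. The POLIIS2P lists held 87456 and 85517 summits in shLUC and 79949 in shHNRNPU#1 cells. H3K27ac lists of shHNRNPU cells held 40487 to 85142 and H3K4me1 lists 147145 to 214333. Of the pluripotency genes, DNMT3B, a de novo DNA methyltransferase, had 20 POLIIS2P summits in or within 2000 bp of the gene in each shLUC library and 22 in the shHNRNPU#1 library, and POU5F1, SOX2, NANOG and LIN28A each had at least 1 in every library. The targeted HNRNPU gene had 5, 5 and 8 summits in the same order and held none of the 13086 sites. A peak list does not measure its transcript, so these lists do not check the knockdown.

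A few of the sites lay at a start of transcription internal to a gene. Of 33725 autosomal RefSeq promoter windows (250 bases before to 50 after an annotated start), 186 held 1 of the sites. In all, 170 sites (1.299%) lay in such a window. Since sites lie over 2000 bp from any protein-coding gene end, a protein-coding window here has its start away from the outer gene start. JARID2, for example, begins at 15246069, upstream of its window. The 5 protein-coding windows with the strongest such site in their upstream part are shown, chosen after their values were seen, because their sequence can be read against the signal. Each is the 250 bases before the start, 5′ to 3′ on the gene's strand, from RefSeq on GRCh38.p14, and the capitals mark the 21 bases centred on the POLIIS2P summit. They belong to RALGDS (chr9:133121241-133121490, minus strand), GNAI2 (chr3:50235954-50236203, plus), FNBP1 (chr9:130043190-130043439, minus), HDLBP (chr2:241272835-241273084, minus) and JARID2 (chr6:15248605-15248854, plus).
RALGDS: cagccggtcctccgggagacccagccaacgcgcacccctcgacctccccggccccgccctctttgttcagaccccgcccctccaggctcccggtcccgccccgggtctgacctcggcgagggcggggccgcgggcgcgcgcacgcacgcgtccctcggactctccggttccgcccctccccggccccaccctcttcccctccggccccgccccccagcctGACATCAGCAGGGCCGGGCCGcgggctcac
GNAI2: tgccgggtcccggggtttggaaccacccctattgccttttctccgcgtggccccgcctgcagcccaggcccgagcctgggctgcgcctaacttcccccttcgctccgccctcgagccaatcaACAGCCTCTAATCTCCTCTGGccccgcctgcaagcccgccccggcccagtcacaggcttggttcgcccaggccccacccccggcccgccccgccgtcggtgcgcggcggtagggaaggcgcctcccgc
FNBP1: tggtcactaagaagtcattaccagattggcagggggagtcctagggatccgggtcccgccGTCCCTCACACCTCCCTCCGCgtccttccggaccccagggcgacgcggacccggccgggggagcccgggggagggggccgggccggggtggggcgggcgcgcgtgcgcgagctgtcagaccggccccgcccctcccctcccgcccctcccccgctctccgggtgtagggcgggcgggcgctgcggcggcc
HDLBP: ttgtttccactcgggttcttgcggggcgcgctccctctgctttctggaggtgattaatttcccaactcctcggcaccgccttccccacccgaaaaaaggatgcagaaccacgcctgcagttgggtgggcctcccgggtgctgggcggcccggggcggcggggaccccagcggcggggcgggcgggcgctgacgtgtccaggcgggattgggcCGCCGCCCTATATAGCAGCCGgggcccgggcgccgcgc
JARID2: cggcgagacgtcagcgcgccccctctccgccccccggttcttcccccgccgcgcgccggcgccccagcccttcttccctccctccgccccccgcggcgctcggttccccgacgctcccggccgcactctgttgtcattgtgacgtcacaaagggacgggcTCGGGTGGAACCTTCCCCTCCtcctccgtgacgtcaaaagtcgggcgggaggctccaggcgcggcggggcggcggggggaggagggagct

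All 5 windows were rich in G and C, at 78.8% in RALGDS, 72.8% in GNAI2, 77.6% in FNBP1, 70.8% in HDLBP and 74.8% in JARID2. Over the upstream parts of all 186 windows the median was 66.6% with 19 CpG dinucleotides, against 58.4% and 11 over all 33725 windows. The sets also differ in gene type, with 137 of the 186 and 21155 of the 33725 windows at protein-coding genes. The motif GGGCGG, read on both strands, was in 67.2% of the 186 and 42.7% of all windows, CCAAT in 31.2% and 31.8%, and TATAAA in 5.91% and 10.7%. Windows holding a gene-body site with H3K27ac had like values for 3 of these (65.2% GC, 19 CpG, GGGCGG in 64.3%). They had CCAAT more often (39.4%) and TATAAA less often (1.71%). Windows holding any shared POLIIS2P site had 66.4% GC, 22 CpG, GGGCGG in 73.5%, CCAAT in 39.0% and TATAAA in 3.04%. The high GC is therefore not particular to the 186 windows, and the motif differences were not tested. GGGCGG occurred in all 5 printed windows, CCAAT in GNAI2, FNBP1 and HDLBP, and TATAAA in none of the 5. These matches describe letters in the window only.

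The RALGDS site, in the gene of a Ral exchange factor, lay 20 bases before this annotated start and scored 95.1 and 70.9 in the shLUC repeats. At GNAI2, which encodes an inhibitory G protein subunit, the site lay 118 bases before the start and scored 62.5 and 49.4. The FNBP1 site lay 180 bases before the annotated start of its window, the HDLBP site 28 and the JARID2 site 80. All 5 had a POLIIS2P summit within 250 bp in shHNRNPU#1 cells, and 4 of the 5 had an HNRNPU summit within 500 bp in both repeats, HDLBP being the exception. Sites in promoter windows are set beside the other 12916 without a test. An HNRNPU summit was within 500 bp of 42.9% and 51.8% of the 170 in the respective repeats, against 8.43% and 8.32% of the others, and 80.6% of the 170 had a shHNRNPU#1 POLIIS2P summit within 250 bp, against 58.1%. Their POLIIS2P scores were also higher, with a median of 8.74 against 5.29 in the first repeat.

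Small RNA genes lay beside another few of the sites. A microRNA gene lay within 500 bp of 31 sites, a snoRNA gene of 18, a tRNA gene of 6 and an snRNA gene of 1, and the numbers for gene-body sites with H3K27ac were 35, 14, 1 and 0. Mature sequences of 31 of these microRNA genes were read from RefSeq, and 1 seed, the bases 2 to 8 that pair with targets, occurred in mature microRNAs of different genes. Both microRNAs with this seed are shown with the microRNA beside the strongest site, with the seed in capitals. They are hsa-miR-103a-3p from an intragenic locus in PANK2 (chr20:3917541-3917563, plus), hsa-miR-107 in PANK1 (chr10:89592756-89592778, minus) and hsa-miR-6763-5p in FBRSL1 (chr12:132582002-132582020, plus).
hsa-miR-103a-3p: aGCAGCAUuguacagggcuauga
hsa-miR-107: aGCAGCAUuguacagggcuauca
hsa-miR-6763-5p: cUGGGGAGuggcuggggag

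PANK1 and PANK2 encode pantothenate kinases, the first enzymes of coenzyme A synthesis. The PANK2 site scored 8.97 and 6.59 and had a POLIIS2P summit within 250 bp in shHNRNPU#1 cells. The PANK1 site scored 3.05 and 3.69 and had none there.

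The sites were chosen on their POLIIS2P peaks, so these scores are a description. The score is the deposited −log10 of a p- or q-value within a list. Its median was 5.30 in the first shLUC repeat and 5.24 in the second. Gene-body sites with H3K27ac had medians of 6.99 and 6.89, and gene-end sites with H3K27ac 13.6 and 12.4. By mean percentile within the lists the chosen sites had a median of 49.6, against 62.8 for gene-body sites with H3K27ac and 63.3 for all shared sites. The median distance between the repeats' summits was 56 bp, and the median distance to the nearest gene end was 17446 bp. At the limits of the rule, the 200 sites with H3K27ac 501 to 600 bp away had a median score of 5.33, and the 219 gene-body sites just inside 500 bp had 5.52. The 86 sites 2001 to 2100 bp from a gene end had a median of 6.67, and the 80 just nearer had 6.49. The 679 sites with 201 to 250 bp between repeats and the 449 summits just beyond both had a median of 4.42 in the first repeat.

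The strongest sites scored far above these medians. In FBRSL1 the summit at chr12:132582303, beside MIR6763, scored 144.8 and 109.1 in the shLUC repeats and 94.3 at 88 bp in shHNRNPU#1 cells. It had HNRNPU in both repeats and H3K4me1 in 6 of 6 libraries, counting summits of any strength, and in 3 among the 40000 strongest. The ARHGAP23 site (chr17:38510248), in a GTPase-activating protein gene, scored 115.8 and 90.8, and 61.3 in shHNRNPU#1 cells. The RCC1 site (chr1:28515325), in the gene of the Ran exchange factor, scored 104.0 and 89.5, and 23.2 in shHNRNPU#1 cells. It had neither HNRNPU nor H3K4me1 in any library. Sites of NSMF (chr9:137453938), PHF21B (chr22:44975715) and DMPK (chr19:45779583), the last in the gene of a myotonic dystrophy kinase, scored 86.5 to 103.1 in the first repeat and 55.7 to 74.2 in shHNRNPU#1 cells. All 3 had HNRNPU in both repeats and H3K4me1 of any strength in 6 of 6 libraries, while among the 40000 strongest summits PHF21B had it in 6 and NSMF and DMPK in 0. The ADGRL3 site (chr4:61760268), in the gene of an adhesion receptor of neurons, had HNRNPU in both repeats but H3K4me1 in none, with scores of 84.6 and 85.0 in shLUC and 33.4 in shHNRNPU#1 cells. Depth is unknown, so scores of different lists do not measure a change, and choosing sites by high shLUC scores favours those repeats. By percentile within each list, these sites lay at 99.32 to 99.80 in the shLUC repeats. In shHNRNPU#1 cells RCC1 lay at 94.35, ADGRL3 at 97.13 and the others at 98.97 to 99.69. A difference between conditions at these sites was not tested.

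H3K4me1, which the choice of sites did not use, lay within 500 bp of 12.1% of the sites in both control and HNRNPU knockdown cells. Among the 40000 strongest H3K4me1 summits of each library, the share was 12.1% and 12.2% in the shHNRNPU#1 repeats, 12.1% in both shHNRNPU#2 repeats, and 12.2% and 12.0% in the shLUC repeats read by peak name. The mean was 12.1% ± 0.0326 (SD, n = 4) in shHNRNPU and 12.1% ± 0.0919 (SD, n = 2) in shLUC cells, and the groups overlapped. The difference was 0.0172 percentage points (p = 0.8, two-sided exact permutation test over 15 assignments, which cannot give a p below 0.0667). The windows around these summits covered 0.987% to 1.03% of the gene-body bases that could hold a site. With each list cut to the same length, a gain or loss of H3K4me1 across the whole genome could not show in these shares or their test. With every deposited summit the share was 29.7% to 38.0% in shHNRNPU and 33.0% and 34.2% in shLUC libraries, where 4.15% to 6.33% of bases were covered.

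Gene-body sites with H3K27ac carried H3K4me1 more often in every library. Their share was 31.9% to 33.0% over the 6 libraries, with a mean of 32.5% ± 0.524 (SD, n = 6). The chosen sites were lower by a mean of 20.4 percentage points, in 6 of 6 libraries (p = 0.03125, two-sided exact sign-flip permutation test, the smallest p that 6 libraries can give). The 6 libraries read the same sites, so the test covers the spread between libraries and not between sites.

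H3K4me1 beside a site in all shHNRNPU and no shLUC library was rare. Counted among the strongest summits in 4 of 4 shHNRNPU and 0 of 2 shLUC libraries, 21 sites (0.160%) had the mark, against a background of 0.271% over all 49802 shared sites. In the opposite direction, with the mark in 2 of 2 shLUC and 0 of 4 shHNRNPU libraries, there were 29 sites (0.222%) against a background of 0.267%. Both shares were below the background, but so was the share with H3K4me1 at all, at 12.1% against 21.9% over all shared sites. The other classes without H3K27ac had like values, with 0.147% and 0.179% at gene ends and 0.236% and 0.157% at intergenic sites. The low shares are therefore not particular to the chosen sites.

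**Figure D1:**
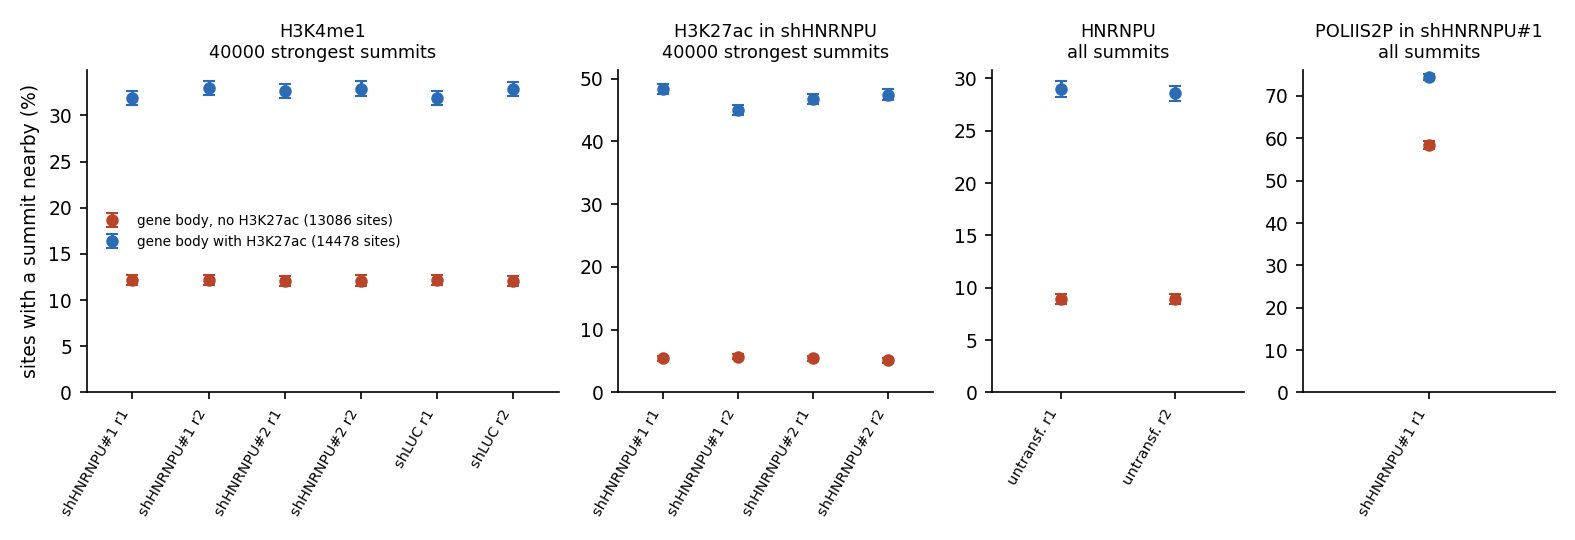
The percent of gene-body POLIIS2P sites with a summit of each library nearby (within 500 bp, or 250 bp for POLIIS2P) is plotted per library with Wilson 95% intervals, for sites without (red) and with (blue) H3K27ac. The shLUC points in the H3K4me1 panel are the libraries titled H3K27ac shLUC; red points are near 12.1% in all 6 libraries and blue points between 31.9% and 33.0%.

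HNRNPU was found beside few of the sites. In untransfected cells 1162 sites (8.88%) had an HNRNPU summit within 500 bp in the first repeat and 1163 (8.89%) in the second. The mean was 8.88% ± 0.0054 (SD, n = 2), where the windows covered 0.475% to 0.499% of the gene-body bases. This SD compares the totals of the repeats and not whether they found the same sites. Gene-body sites with H3K27ac had 29.0% and 28.6%. With both repeats required, 568 sites (4.34%) had HNRNPU, against a background of 24.0% over all shared sites, 19.2% at gene-body sites with H3K27ac and 64.4% at gene-end sites with H3K27ac. There were 2 HNRNPU libraries, from untransfected cells, and no test was made.

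The 568 sites with HNRNPU in both repeats are set beside the 11329 with HNRNPU in neither, without a test. Their median POLIIS2P score was 10.9 against 5.03. All 6 H3K4me1 libraries had a summit (of any strength) within 500 bp of 68.0% of them, against 16.1%. A shHNRNPU#1 POLIIS2P summit lay within 250 bp of 83.6%, against 56.2%. Their median distance to a gene end was 13086 bp against 17561 bp.

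Sites without any neighbouring summit made up a large share. No H3K4me1 summit of any strength lay within 500 bp of 7147 sites (54.6%) in the 6 libraries, and 2828 sites (21.6%) had one in all 6. For 5506 sites (42.1%) no H3K4me1, HNRNPU or shHNRNPU H3K27ac summit was found. These 5506 sites were also weaker, with a median POLIIS2P score of 4.69 and 52.1% found in shHNRNPU#1 cells.

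Since the chosen sites scored lower than gene-body sites with H3K27ac, the shares were also read within quartiles of the mean POLIIS2P percentile over all gene-body sites. In the lowest quartile 5.86% ± 0.173 of the chosen sites had H3K4me1 (SD, n = 6 libraries), and in the highest 25.1% ± 0.501. Gene-body sites with H3K27ac had 16.3% ± 0.602 and 49.1% ± 0.756. HNRNPU went from 3.95% ± 0.0689 to 22.3% ± 1.27 (SD, n = 2) at the chosen sites and from 10.1% ± 0.533 to 51.9% ± 0.0449 at sites with H3K27ac. In each of the 4 quartiles the chosen sites had the lower share of both. Strengths still differ within a quartile, and the part of POLIIS2P strength was not tested.

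**Figure D2:**
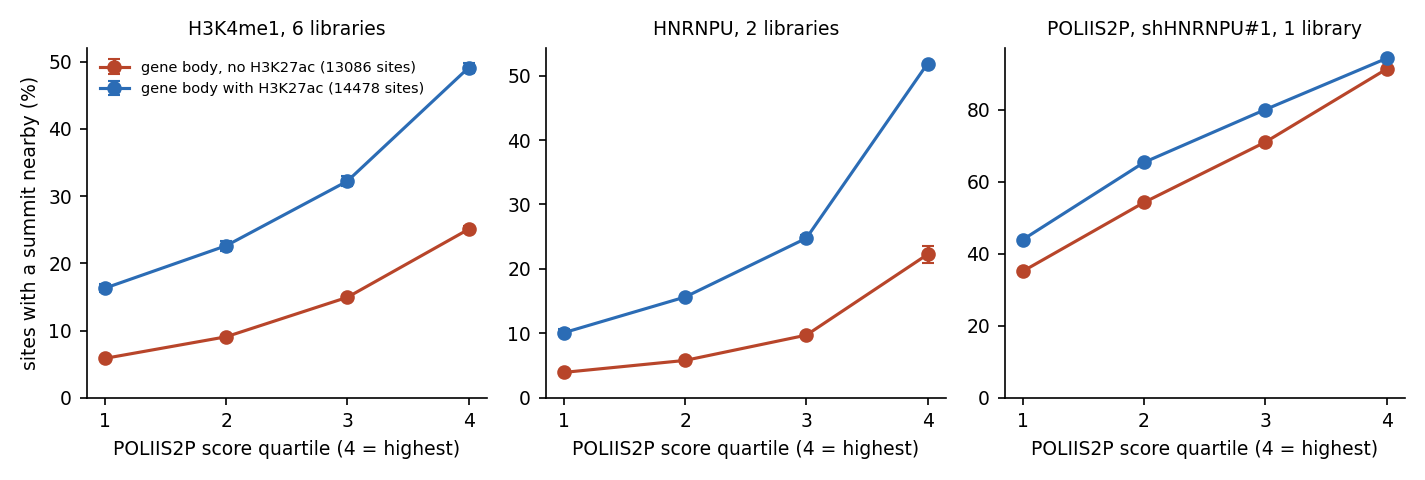
The percent of gene-body sites with a summit nearby is plotted against the quartile of the POLIIS2P score, for sites without (red) and with (blue) H3K27ac; bars are the SD over libraries, with none for the single POLIIS2P library. All curves go up with the score, and red lies below blue in each quartile, with 25.1% against 49.1% for H3K4me1 in the highest.

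POLIIS2P was found at 7644 of the 13086 sites (58.4%, Wilson 95% interval 57.6% to 59.3%) in shHNRNPU#1 cells, within 250 bp. The remaining 5442 sites (41.6%) lacked a summit there, against a background of 28.2% over all shared sites. The share lacking one was 25.5% at gene-body sites with H3K27ac, 36.3% at intergenic sites without H3K27ac and 12.2% at gene-end sites with H3K27ac. Presence in the knockdown library went with the score: 35.2% of the chosen sites were found in the lowest score quartile and 91.3% in the highest, beside 43.9% and 94.3% for gene-body sites with H3K27ac. There was 1 shHNRNPU POLIIS2P library, so the comparison is of libraries and not of conditions, and the intervals cover counting error only.

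A site had to be in both shLUC repeats, so it favours them. The fair comparator is a shLUC repeat that did not choose the sites. Of 29280 gene-body summits without H3K27ac in the first shLUC repeat, 44.7% were found in the second repeat and 37.6% in the shHNRNPU#1 library, a difference of -7.08 percentage points. Of 28796 such summits of the second repeat, 45.4% were found in the first and 39.8% in the shHNRNPU#1 library, a difference of -5.68. At gene-body summits with H3K27ac the differences were -4.76 and -4.49. From both starting lists, and with and without H3K27ac, fewer summits were found in the knockdown library than in the other control repeat. The shHNRNPU#1 list was also the shortest of the 3. The part of list length was read with the 75000 strongest summits of each list, an alternative chosen after seeing the data, under which the mean difference at summits without H3K27ac went from -6.38 to -4.11.

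Some strong sites had no shHNRNPU#1 summit even within 500 bp, as did 4977 sites (38.0%) in all, against a background of 23.7%. The strongest was in NOTCH3 (chr19:15196100), a Notch receptor, with scores of 48.8 and 36.2 in shLUC cells and the nearest shHNRNPU#1 summit 630 bp away. YBEY (chr21:46298122), an endoribonuclease gene, had scores of 37.1 and 31.7 and a nearest summit at 708 bp. Others were in UBE2K, a ubiquitin-conjugating enzyme (chr4:39771574), and RABL6, a Rab-like GTPase (chr9:136821593), with first-repeat scores of 37.6 and 28.8. For all 4 a shHNRNPU#1 summit did lie 528 to 783 bp away, just beyond the distance counted.

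H3K27ac is absent from the sites in shLUC cells by choice, so its presence in knockdown cells cannot be read as a gain. Using every summit, the share with H3K27ac within 500 bp was 8.02% and 5.73% in the shHNRNPU#1 repeats and 12.0% and 14.6% in the shHNRNPU#2 repeats. The order followed list length, with 51655 and 40487 summits in shHNRNPU#1 and 75264 and 85142 in shHNRNPU#2 lists. With the 40000 strongest summits of each list the shares were 5.11% to 5.67%, with a mean of 5.41% ± 0.229 (SD, n = 4). Of the 13086 sites, 74 (0.565%) had H3K27ac in 4 of 4 shHNRNPU libraries, beside a background of 0.225% over all shared sites. That background includes the sites with shLUC H3K27ac, which cannot be counted by definition. The other classes without shLUC H3K27ac had 0.375% at gene ends (23 sites) and 0.393% at intergenic sites (15 sites). The difference between these classes was not tested.

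A shLUC repeat left out of the choice gave the comparison. Gene-body sites without H3K27ac in the first repeat alone (18149) carried it at 27.9% of sites in the second shLUC repeat and at a mean of 18.3% ± 6.25 (SD, n = 4) in the shHNRNPU libraries. Sites without it in the second repeat alone (14730) carried it at 11.2% in the first and at 12.9% ± 4.69 (SD, n = 4) in the shHNRNPU libraries. The differences were -9.63 and 1.75 percentage points, and so of opposite sign. The shLUC H3K27ac list held 62449 summits in the first repeat and 90914 in the second, so the longer list was the comparator for -9.63. With the 40000 strongest summits the differences were 0.877 and 1.20, from shLUC shares of 10.3% and 6.24%. With 1 library held out at a time no test was possible.

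Of the 74 sites, the strongest was in the autophagy gene ATG16L2 (chr11:72831711), with scores of 31.6 and 24.7, HNRNPU in both repeats and H3K4me1 in 6 of 6 libraries. RRP15 (chr1:218324161), a ribosome biogenesis gene, scored 19.5 and 18.02 and had its nearest shLUC H3K27ac summit at 1064 bp. PTDSS1 (chr8:96333254), a phosphatidylserine synthase gene, MRPS9 (chr2:105081073), a mitochondrial ribosomal protein gene, and FOXN3 (chr14:89371794), a forkhead repressor gene, scored 17.97, 19.5 and 21.9 in the first repeat. These 3 had H3K4me1 in 6 of 6 libraries.

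The sites were spread over 5705 of 16625 protein-coding genes long enough to hold one (34.3%). A single site lay in 2807 of these genes, at least 5 in 646 and at least 10 in 104, and genes with at least 5 held 37.1% of the sites. Host genes were longer, with a median of 58.4 kb against 21.3 kb for genes without one. The share of genes with a site was 13.0% below 20 kb, 58.1% between 100 and 200 kb and 40.3% over 500 kb. Per 100 kb, however, the density went from 2.36 sites in genes below 20 kb to 0.259 in genes over 500 kb, as it did for sites with H3K27ac (2.40 to 0.289). Overlapping genes shared 318 of the sites, which count for each.

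JARID2, which encodes a cofactor of Polycomb repressive complex 2 (chr6:15246069-15522042), held 43 sites. In it the shLUC repeats had 62 and 53 POLIIS2P summits without shLUC H3K27ac and the shHNRNPU#1 library had 58. For JARID2 the knockdown library lay between the control repeats, and 7 of its sites had HNRNPU in both repeats, the most among the genes with many sites described here.

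ADCY2, an adenylyl cyclase gene (chr5:7396138-7830081), had 52 and 54 such summits in the shLUC repeats and 26 in the shHNRNPU#1 library, and 10 of its 32 sites were found there. B3GALT1, a galactosyltransferase gene (chr2:167293001-167874045), had 41 and 41 against 22, with 9 of 22 sites found. KIAA0825 (chr5:94150851-94618604) had 31 and 32 against 21. In these 3 genes the knockdown library lay well below both control repeats, and with the 75000 strongest summits of each list it still did, at 24 against 42 and 47 in ADCY2, 20 against 31 and 35 in B3GALT1 and 20 against 30 and 30 in KIAA0825. There was 1 knockdown library and no test. These genes were chosen for many sites found in both shLUC repeats, which favours those repeats over the knockdown library. Over all eligible genes the sums were 30128, 29633 and 26557.

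A further 7 genes held 18 to 27 sites each, and they too were chosen on sites of both shLUC repeats. FRAS1, an extracellular matrix protein gene, had 49, 51 and 44 summits in the order of shLUC repeat 1, repeat 2 and shHNRNPU#1. FOXN3 had 55, 47 and 37, and ROR1, a receptor of the Wnt family ligands, had 40, 38 and 31. SNTG2, ADGRV1 and PCNX2 had 47, 43 and 37, then 44, 45 and 37, then 31, 33 and 28. The knockdown library was below both control repeats in these 6 genes, while in PHF21B, a PHD finger gene, it lay between them (31, 26 and 28). With the 75000 strongest summits of each list this turned around for FRAS1 (40, 45 and 41) and PHF21B (29, 25 and 23).

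**Figure D3:**
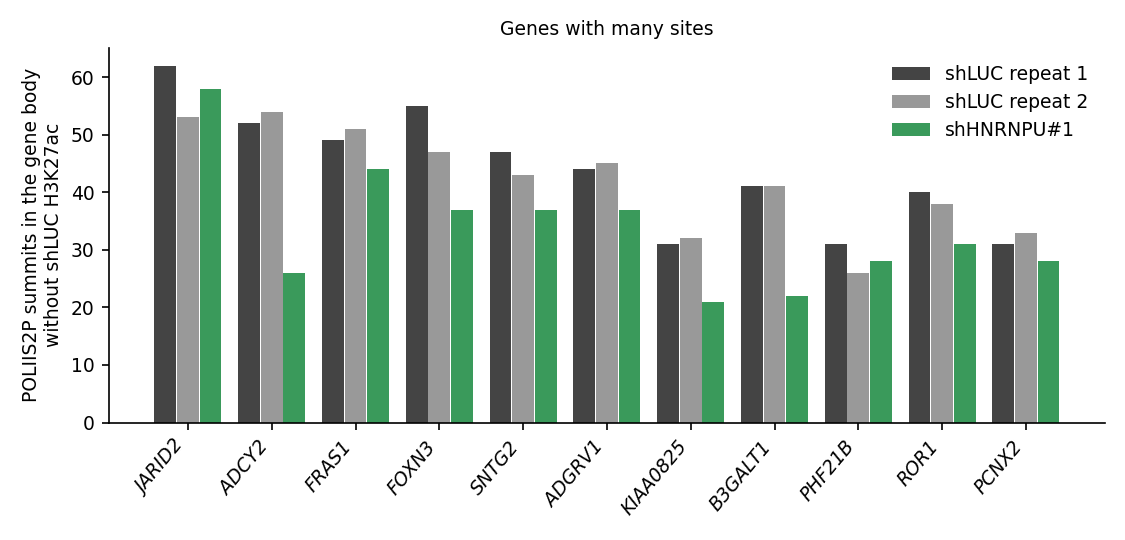
Bars give the number of POLIIS2P summits without shLUC H3K27ac in the body of each of the genes with many sites described in the text, in both shLUC repeats (dark and light gray) and the shHNRNPU#1 library (green). ADCY2 (52, 54 and 26) and B3GALT1 (41, 41 and 22) stand out against JARID2 (62, 53 and 58). The genes were chosen on sites of both shLUC repeats, which favours those repeats.

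By density the leading gene was L1TD1, an RNA-binding protein gene of pluripotent cells (chr1:62194849-62212328). It held 5 sites in 17.5 kb, or 37.1 per 100 kb of eligible body, and 6, 7 and 7 summits in the 3 libraries. SERHL2, SERBP1 (an mRNA-binding protein), RPS3 (a ribosomal protein), INAVA, RIPOR1, CPNE1 (a copine) and USP44 (a deubiquitinase) followed with 22.5 to 30.4 per 100 kb. The RPS3 sites scored up to 51.9 in the first repeat and all 5 were found in shHNRNPU#1 cells, whereas 1 of 5 INAVA sites was.

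Lists of chromatin, replication, transport and splicing genes held sites in most of their genes. Chromatin regulators held sites in 46 of 53 eligible genes (86.8%), with a median of 3.25 sites per 100 kb. DNA replication and repair genes had 33 of 39 (84.6%, median 3.75), nuclear transport and lamina genes 26 of 31 (83.9%, median 3.53) and splicing factors and hnRNPs 36 of 49 (73.5%, median 8.15). Over all eligible genes 34.3% held a site and the median was 0. These lists differ from all genes in length too, with median lengths of 86.1, 63.6, 63.5 and 23.6 kb against 31.2 kb. Gene-body sites with H3K27ac lay in the same lists, numbering 222, 82, 55 and 55 beside 229, 109, 89 and 115 of the chosen sites. Over all eligible genes they numbered 15016 beside 13492, where a site in overlapping genes counts for each. Sites in these lists are therefore not particular to those without H3K27ac, and the difference by list was not tested.

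Among the chromatin regulators, ARID1B, a subunit of SWI/SNF remodelers, held 14 sites, TET1, a 5-methylcytosine oxidase, 10, and DNMT3B 9. In DNMT3B all 9 were found in shHNRNPU#1 cells, and summits numbered 9, 9 and 10. In SUZ12, a core subunit of Polycomb repressive complex 2, none of 4 was found within 250 bp, although the gene had 5, 8 and 7 summits. Among replication and repair genes, PRKDC, the catalytic subunit of DNA-dependent protein kinase, held 14 and MCM5, a helicase subunit, 8. Splicing genes were led by PTBP2 with 13, HNRNPC with 11 and MATR3 with 10, and HNRNPC had 12, 21 and 23 summits.

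Glycolysis and one-carbon genes had 17 of 24 with a site (70.8%), led by PKM, SLC2A1 and MTHFD1 with 4 each. Pluripotency genes had 15 of 25, with a median of 6.18 per 100 kb, where JARID2, DNMT3B, USP44, PODXL and FGF2 held the most. POU5F1 held none and NANOG 1, and both are short genes. Pol II elongation and termination genes had 15 of 37 (40.5%), led by CDK13 with 10. Neural and mesendoderm regulators had 8 of 21 (38.1%), with 5 sites each in KDR and GATA4. Long neuronal and adhesion genes, with a median length of 1195 kb, had 16 of 43 (37.2%) and 0.245 sites per 100 kb over the list. Ribosomal protein and translation factor genes had 10 of 32 (31.3%). They are short, with a median length of 6.97 kb, and over the list they held 9.31 sites per 100 kb, against 1.17 over all eligible genes. The median per gene was 0 in both, and EIF3A, RPS3 and RPS20 held 7, 5 and 3 of the list's 24 sites.

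HNRNPU beside the sites is given by list without a test. None of the 115 sites in splicing genes or the 109 in replication and repair genes had HNRNPU in both repeats, which allows shares of up to 2.61% and 2.75%, against 4.31% over all genes. There was also none among the 46 sites of elongation and termination genes, the 37 of glycolysis and one-carbon genes and the 24 of ribosomal and translation genes, where up to 6.52%, 8.11% and 12.5% are allowed. In neural and mesendoderm regulators 5 of 18 had it (27.8%), among them 2 in PAX6 and 1 each in FOXA1 and LHX2. Sites found in shHNRNPU#1 cells ranged from 53.9% in nuclear transport genes to 83.3% of 24 in ribosomal and translation genes, with 58.6% over all genes.

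**Figure D4:**
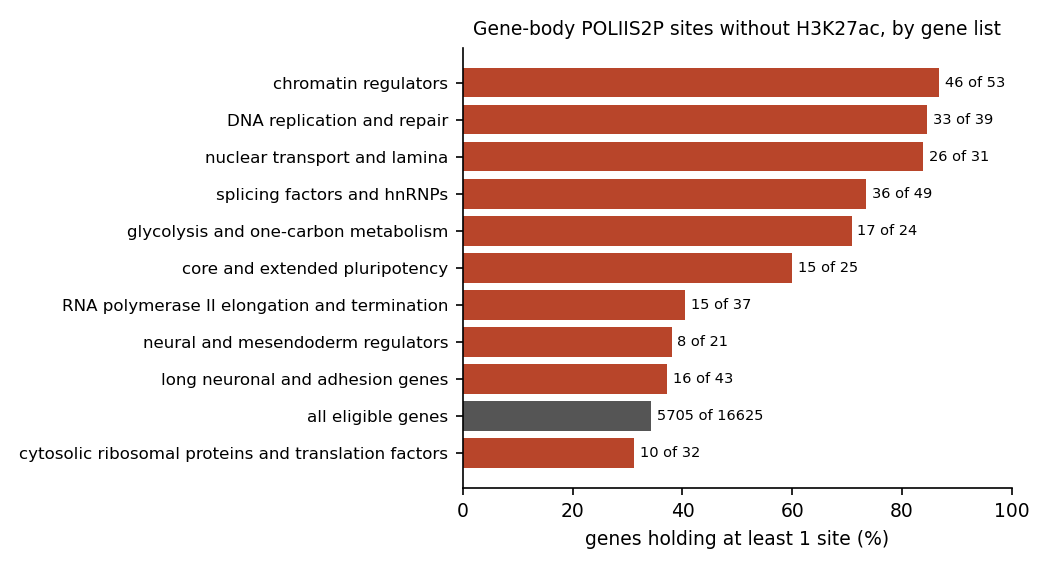
Bars give the percent of eligible genes in each list that held at least 1 site, with the counts at the bar ends and all 16625 eligible genes in gray. The lists of chromatin, replication and transport genes reach 83.9% to 86.8%, against 34.3% of all genes and 31.3% of the ribosomal and translation genes, whose median length is 6.97 kb.

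Along genes the sites became denser toward the end. Strand was known for 4667 of the 5705 host genes (81.8%). Position was read over all 8590 stranded genes of at least 20 kb, with or without a site, which held 10190 sites. Their density was 6.93 per Mb of eligible body in the part nearest the start (the first of 10 equal parts of the gene), 10.3 in the fifth and 14.8 in the last. The part past the gene's middle held 56.5% of the sites, and its density was 1.301 times that of the part before it. This ratio was 1.21 for gene-body sites with H3K27ac. For summits without H3K27ac in single libraries it was 1.23 in the second shLUC repeat and 1.21 in the shHNRNPU#1 library, so that neighbouring values are close. Eligible body here includes bases within 500 bp of shLUC H3K27ac, which cannot hold a site without the mark. Over all genes, 1074 of 1133 Mb lay farther from the mark. The rule thus lowers the density where H3K27ac is frequent, and its part in the rise and in these ratios was not tested. Exons were not in the gene table, so exonic and intronic sites were not separated.

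**Figure D5:**
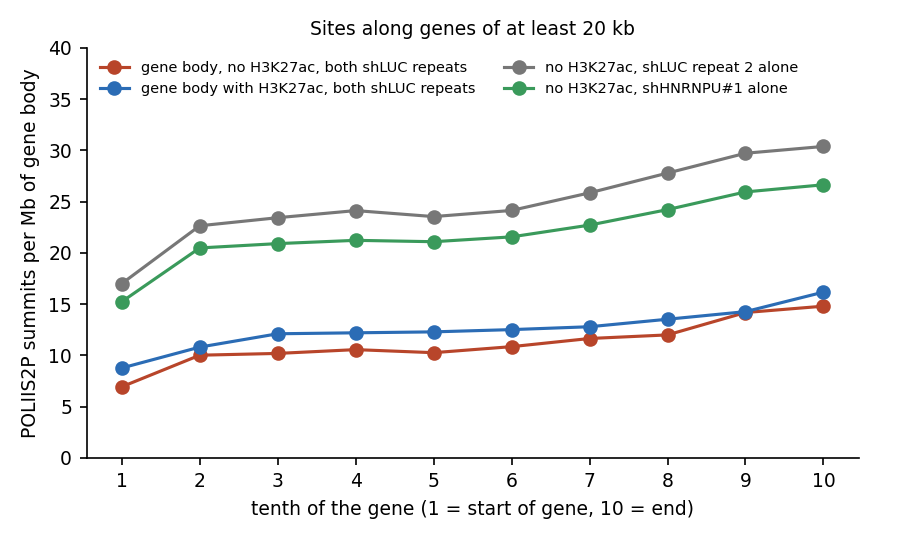
The number of POLIIS2P summits per Mb of eligible gene body is plotted over 10 equal parts of the gene for sites without (red) and with (blue) H3K27ac and for summits without H3K27ac of single libraries (gray shLUC repeat 2, green shHNRNPU#1). All 4 lines go up toward the gene end, from 6.93 to 14.8 per Mb for the red line, and the single-library lines lie higher because no second repeat was required.

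Across the genome the sites were densest on gene-rich chromosomes. There were 28.7 sites per Mb of eligible gene body on chromosome 19, 21.4 on 22 and 17.0 on 17. The lowest density was 8.29 on chromosome 3. Eligible gene body again includes bases beside shLUC H3K27ac. On chromosome 19, 43.4% of gene-body sites lacked H3K27ac, and this share ran from 41.5% on chromosome 20 to 52.5% on chromosome 2. The median spacing between neighbouring sites was 30140 bp, and 27.1% of neighbours were within 10000 bp of each other.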

How the data were processed

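Per the labels, CUT&Tag libraries of H1 cells were processed with cutadapt, Bowtie2, SAMtools, MACS2 and deepTools on hg38 (versions not given in the sources used here), and the paper listed for the series describes other experiments. The authors deposited 1 list of peak summits per library, with positions and a score read as the deposited −log10 of a p- or q-value. The deposited HNRNPU interval list of the whole series, whose score is 0, was used for positions in an alternative. The lowest score was 2.00 in the histone lists and 1.30 in the others. Depth is unknown, and a longer list reaches weaker peaks, so the 40000 strongest summits were used where list lengths could set a share.

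Groups came from the sample titles. Genes and strand came from RefSeq tables (GRCh38.p14), and sequences from RefSeq promoter and microRNA tables. Positions count from 1. Distances, shares, Wilson 95% intervals, exact permutation tests (15 assignments of the libraries) and exact sign-flip tests (64) were computed in Python 3.11.15 with numpy 2.4.6, pandas 2.3.3 and scipy 1.17.1, after tests on simulated data. Intervals and limits for a count of 0 (3 counts) cover counting error only. Named genes were the 12 with most sites and the 8 densest with at least 5, and some genes named by these rules are not reported here. Named sites were the 6 strongest, and the 5 strongest with HNRNPU in both repeats, without a shHNRNPU#1 summit within 500 bp, or with H3K27ac in 4 of 4 shHNRNPU libraries. The sites, lists and tests were chosen with earlier results of these data known. Alternatives changed distances, list lengths, score minimum, antibody assignment and libraries. No read of the targeted transcript was used here.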

Additional observations from a re-analysis of the deposited data

How the results depend on the processing

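A POLIIS2P score of at least 5 in both repeats left 4981 sites in 3090 genes, and 9 other settings kept both counts within 1.5 times. The near-zero H3K4me1 difference between shHNRNPU and shLUC changed sign with the 20000 strongest summits (-0.0688 percentage points), all summits (-0.655), a 250 bp distance (-0.0134) and shHNRNPU#2 alone (-0.00764), and ran from -0.0478 to 0.0821 with 1 library left out. As labelled it was 12.1 by construction of the sites. Replicate numbers did not pair the libraries (correlations of deviations 0.000006 to 0.0404), and a block on replicate number gave 0.0172 with p = 0.778 (exact permutation over 9 assignments). The H3K4me1 difference from gene-body sites with H3K27ac ran from -20.6 to -20.3 with 1 library left out, where p = 0.0625 (exact sign-flip permutation) is the smallest that 5 libraries can give. It was -14.7 with the 20000 strongest summits, -29.7 with all summits and -30.9 as labelled, the last in part by the choice of sites.

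The H3K27ac share in shHNRNPU cells was 1.71% with the 20000 strongest summits and 8.60% to 11.6% with 1 library left out. The mean held-out H3K27ac difference was -3.94 points, -4.13 within 1000 bp and 1.04 with the 40000 strongest summits, and so changed sign with list length. The HNRNPU share was 7.92% within 250 bp, 10.1% within 1000 bp, 4.88% with the 20000 strongest summits, 14.99% at sites scoring at least 5 and 13.7% with the series-wide intervals. The POLIIS2P share found in shHNRNPU#1 cells was 62.0% within 500 bp, 66.8% within 1000 bp, 15.4% with the 20000 strongest summits, 80.0% at sites scoring at least 5 and 56.9% with the 75000 strongest, the last chosen after seeing the data. The held-out POLIIS2P difference was -7.47 within 500 bp, -4.63 with the 40000 strongest and -4.11 with the 75000 strongest summits, and -7.08 to -5.68 by starting list. The causes of these shifts were not tested. Unknown depth limits every absence: a missing summit may be a peak below the calling threshold.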

Other observations

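Transfer RNA genes lay beside 6 of the sites and 1 of the gene-body sites with H3K27ac, counts too small for a comparison. These sites, named after their values were seen, all had a POLIIS2P summit within 250 bp in shHNRNPU#1 cells. The strongest, in TBC1D31 beside the methionine tRNA gene TRM-CAT1-1, scored 57.9 and 63.8 in the shLUC repeats and had HNRNPU in both repeats and H3K4me1 of any strength in 6 of 6 libraries. The site at TRM-CAT6-1 in FBXO31 scored 32.3 and 19.7 with HNRNPU in both repeats, and the site at TRG-GCC2-4 in VAC14 scored 16.4 and 17.4 with HNRNPU in neither. Of the snoRNA genes, SNORA40 in TAF1D lay beside the highest-scoring site (23.4 and 22.7), and SNORD15B lay beside 1 of the RPS3 sites (4.31 and 4.00). Sequence shared between tRNA gene copies can misplace reads, and its part in these values was not tested.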
